A study of Heterocephalus glaber with 3 samples.

Results

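The endothelial cells described here are the 301 of 25044 quality-passing cells from naked mole-rat lung tumours in which at least 3 different endothelial genes were seen. The genes were CLDN5, VWF, KDR, TEK, EGFL7, RAMP2, ERG and PROX1, 8 of 9 listed; CDH5 has no entry under that symbol in the files. Cells with more than 1 UMI (unique molecular identifier, a count of 1 captured transcript) of CD3D, CD3E and CD3G together were left out. The choice therefore rests on measured values, and the levels of these genes are given as a description only. Animals 1, 2 and 3 gave 82, 129 and 90 cells, or 1.02%, 1.43% and 1.13% of their quality-passing cells (1.19 ± 0.214%, SD, n = 3 animals). Droplet data after dissociation do not show how common a cell type was in the tissue.

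The data are single-cell RNA profiles of lung tumours from 3 naked mole-rats (Heterocephalus glaber), each in 1 library, in a single group. All animals had received an adenovirus carrying CRISPR reagents in the lung, whose edits included an Eml4-Alk inversion and Rb loss, and were sampled 15 weeks later. Tumours were dissected by hand from the surrounding lung, so vessels of adjoining lung may have been carried along, and the adenovirus was not directed to a cell type by anything the labels state. Age and sex are not in the labels, and no untreated animal is labelled, so endothelial cells were compared with other cells of the same animals.

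Endothelial cells line blood and lymph vessels. Blood vessel endothelium is guided by vascular endothelial growth factor (VEGF) through its receptors, by angiopoietins through TEK and by Notch signalling, which favours arterial character, while PROX1 directs lymphatic identity. The lung has a dense capillary bed with a general capillary cell and a specialised, thin gas-exchange cell called the aerocyte. Tumour vessels are often fed by sprouting, in which tip cells lead and basement membrane is laid down behind them.

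The label held for cells with at least 4 of the genes and much less well for those at the limit of 3. Of the 301 cells, 126 had exactly 3 genes, with a median of 21698.5 UMIs per cell, against 4131 UMIs in the 175 cells with at least 4. ESAM, an endothelial junction protein outside the rule, was seen in 11.9% of cells with 3 genes and in 64.6% of those with at least 4, and TIE1, an endothelial receptor kinase, in 8.73% and 50.3%. CSF1R, the macrophage growth factor receptor, was seen in 51.6% of the 3-gene cells and 8.57% of the others, and COL1A1, the main fibrillar collagen of fibroblasts, in 62.7% and 21.7%. At least 3 macrophage markers were found in 61.1% of the 3-gene cells and 9.71% of the others, and at least 3 fibroblast markers in 49.2% and 8%.

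The 3-gene cells were 41.9% of the chosen cells but held 70.6% of their UMIs, so sums over all 301 cells are weighted to them. In 63 of the 126 the 3 genes were TEK, EGFL7 and RAMP2. Just outside the limit, the 1165 cells with 2 genes had a median of 18928 UMIs, and ESAM was seen in 0.944% of them. Rule genes were also seen in T cells, and whether this was free RNA was not tested: in cells with at least 2 CD3 UMIs, TEK was seen in 5.87%, 7.89% and 11.8% and CLDN5 in 0.251%, 1.23% and 0.558% of cells in animals 1, 2 and 3. Each result below is therefore given for the 301 cells as the rule defines them and, beside it, for the 175 cells with at least 4 genes, called the stricter set (49, 85 and 41 cells in animals 1, 2 and 3).

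**Figure D1:**
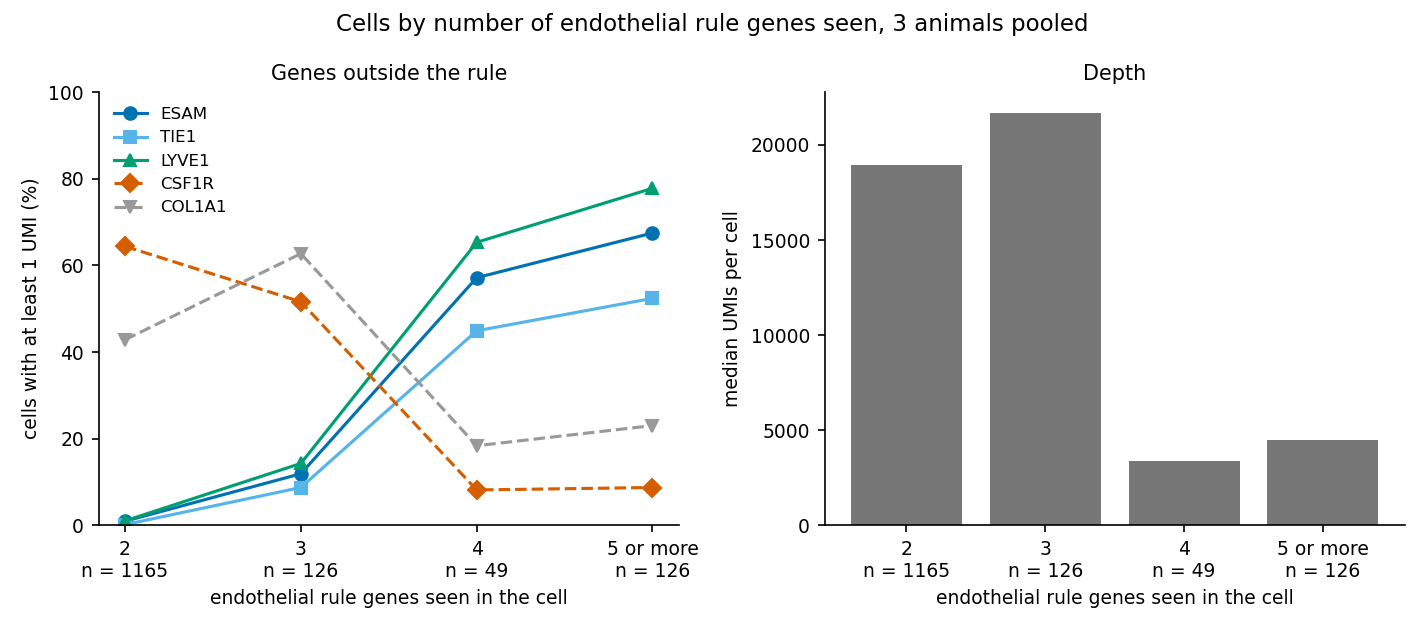
Cells grouped by the number of endothelial rule genes seen (x axis; n cells, 3 animals pooled): left, the percentage of cells with at least 1 UMI of 5 genes outside the rule; right, the median UMIs per cell. ESAM, TIE1 and LYVE1 step up between 3 and 4 genes, where CSF1R, COL1A1 and the median depth step down.

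Libraries held 76093932, 86575320 and 91949365 UMIs in animals 1, 2 and 3. The pairs of libraries had 24, 21 and 31 barcodes in common; for 0 of these did the UMI totals match, and 0 were endothelial in both. Levels are in CPM, the UMIs of a gene per 1000000 UMIs of a class of cells in 1 animal; levels are not divided by gene length, so they compare cells for 1 gene and not genes with each other.

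The rule genes had the levels that their use implies. In the stricter set RAMP2, which carries the adrenomedullin receptor to the cell surface, reached 6087, 4087 and 2906 CPM in animals 1, 2 and 3, and EGFL7, a secreted protein of endothelium, 1675, 1632 and 869 CPM. CLDN5, the tight junction claudin of endothelium, lay at 487, 847 and 679 CPM and VWF, the platelet-binding glycoprotein, at 661, 869.7 and 506 CPM. KDR, the main VEGF receptor, lay at 184, 207 and 164 CPM and the lymphatic factor PROX1 at 76.8, 40.1 and 28.8 CPM. Animal 3 had the lowest level of 5 of these 6 genes.

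Against all other cells of the same animal, 895 of 14916 tested features were higher in the 301 cells (6%) and 922 lower (6.18%), by edgeR's quasi-likelihood test with animal as a block and an adjusted p under 0.05. With the stricter set 1254 of 14619 were higher (8.58%) and 1818 lower (12.4%). Without the animal block 721 features were called over the 301 cells in place of 1817, and without animal 2 1688 were called with the stricter set in place of 3072. Scaling by library size alone raised the share of higher calls among all calls from 49.3% to 75.1% and moved the median log2 fold change over all features from -0.07 to 0.20. Because cells were picked by genes in the same counts, features that go with those genes were favoured by the choice, and these p-values set a difference against the spread between 3 animals only.

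Among called features with a symbol that averaged at least 50 CPM over the animals in the higher class, the largest increases outside the rule fell on MMRN1, FCN3, PTPRB, CALCRL, TIE1, ESAM, STAB1, ROBO4, LYVE1, CIDEA, SOX18, GABRD, RAMP3, ACKR3 and LDB2, with log2 fold changes from 4.32 to 8.22. All 15 were higher in 3 of 3 animals, and all were larger in the stricter set, from 5.82 to 9.82. By the same limits the largest decreases had log2 fold changes from -4.92 to -3.48. Among them were the lymphocyte genes GZMA, NKG7, GIMAP5, CD27 and PTPRCAP. Chosen cells had at most 1 CD3 UMI while the other cells kept the T cells, so decreases of such genes were favoured by the choice. The rest were SFTPC, the alveolar surfactant protein, COCH, and IGKC, the immunoglobulin light chain. IGKC was nonetheless at 1946, 2144 and 24043 CPM in the 301 cells of animals 1, 2 and 3, against 70194, 28908 and 95678 CPM in the others, and was seen in all of the 301 cells. In animal 3 1 chosen cell alone held 11872 IGKC UMIs. Whether these UMIs were free RNA was not tested.

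Endothelial genes that the rule did not use were raised together. Of 10 tested identity genes 9 were higher and 0 lower in both sets, with a median log2 fold change of 5.50 in the 301 cells and 7.0 in the stricter set, against -0.07 and -0.20 over all features. ESAM lay at 68.3, 190.1 and 64.5 CPM in the 301 cells, 314, 485 and 201 CPM in the stricter set and 0.376, 1.59 and 0.348 CPM in all other cells. Both sets lay above the other cells in every animal, with no overlap, and the log2 fold change was 6.98 ± 0.21 (SE, adjusted p = 1.18e-10). PTPRB, the vascular phosphatase that acts on TEK, lay at 217, 219.8 and 101 CPM in the stricter set and 0.0724, 0.323 and 0.162 CPM in other cells. ROBO4, a guidance receptor of vessels, rose from 0.174, 1.03 and 0.373 CPM to 86.8, 246 and 124 CPM, with animal 2 highest in both classes. The change was smaller for CD34 (log2 fold change 3.55, stricter set 5.05) and S1PR1, the sphingosine phosphate receptor (2.81 and 4.34).

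**Figure D2:**
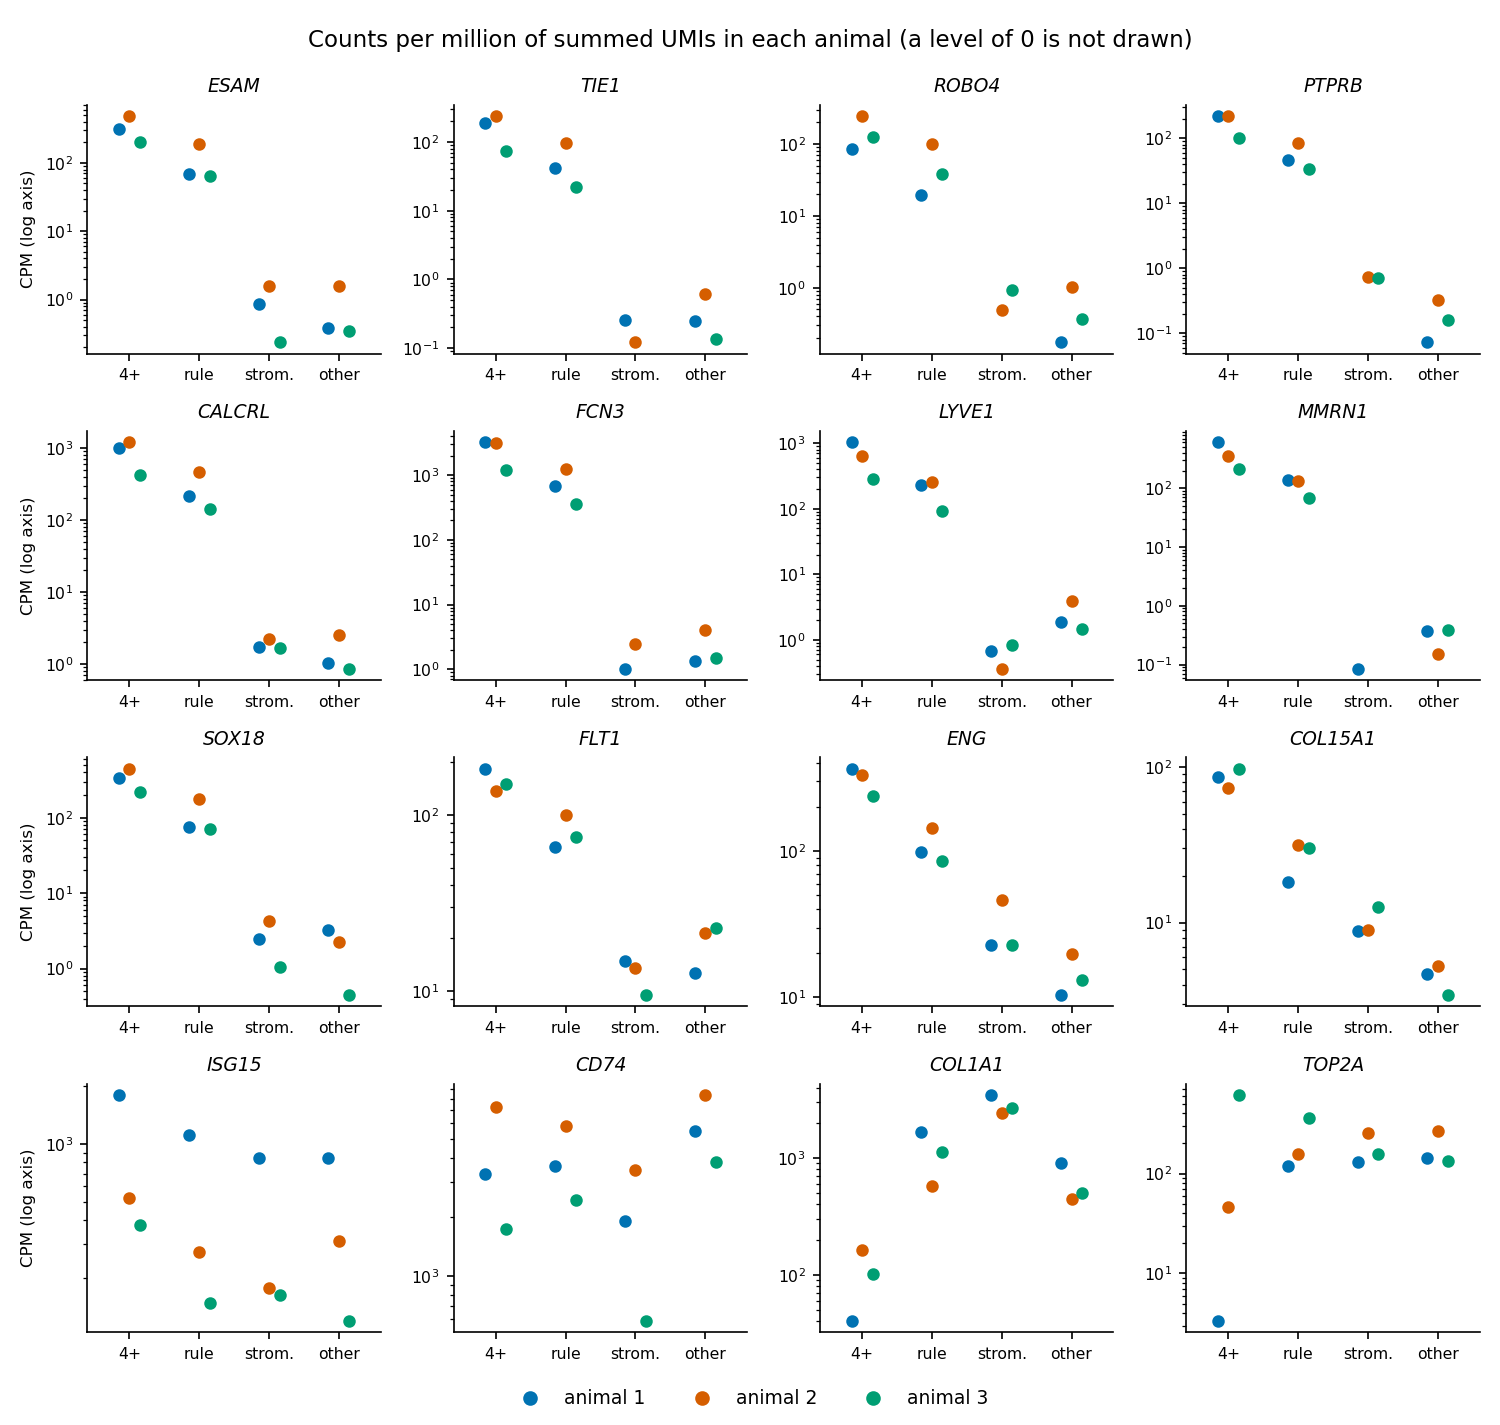
CPM of 16 genes in summed UMIs (y axis, log scale, own range per gene) for the stricter set (4+), the 301 cells (rule), fibroblasts and mural cells (strom.) and all other cells (other), 1 point per animal. The first 12 genes are highest in the stricter set and next highest in the 301 cells in every animal, COL1A1 is highest in the stromal cells, and TOP2A in the stricter set spreads from 3.34 to 613 CPM.

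Receptors for the peptide adrenomedullin, which keeps vessels tight and open, were among the most raised. CALCRL, which forms the receptor with RAMP2 or RAMP3, lay at 213, 464 and 140.2 CPM in the 301 cells and 988, 1200 and 420.1 CPM in the stricter set, against 1.04, 2.5 and 0.858 CPM elsewhere (7.25 ± 0.18 on the log2 scale, adjusted p = 3.08e-11). RAMP3 lay at 70.1, 300.1 and 460.3 CPM in the stricter set, lowest in animal 1 and highest in animal 3, against 0.869, 1.4 and 2.29 CPM. The ligand ADM itself was at 277, 349.8 and 371 CPM in the stricter set and 55.1, 73.4 and 66.3 CPM in other cells, a change of 1.91 on the log2 scale (1.03 for the 301 cells, adjusted p = 0.000128). ACKR3, a scavenger receptor that also binds adrenomedullin, was raised by 4.65.

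Among receptors of the VEGF, TGF-beta and guidance families 5 of 8 were higher in the 301 cells and 7 of 8 in the stricter set, with 0 lower. FLT1, the decoy-like VEGF receptor, lay at 184, 136 and 149.6 CPM in the stricter set and 12.8, 21.4 and 23 CPM in other cells (log2 fold change 2.62 ± 0.25). ENG, the TGF-beta co-receptor endoglin, lay at 367, 334 and 239 CPM against 10.4, 19.9 and 13.2 CPM. ACVRL1, its partner kinase, rose by 3.65 on the log2 scale, BMPR2 by 2.61 and UNC5B, a netrin receptor, by 3.61. NRP2, a VEGF-C co-receptor, passed only in the stricter set (1.94, adjusted p = 0.00107), against 0.87 and an adjusted p of 0.113 for the 301 cells; whether the sets differ was not tested. FGFR1 was not called in either set (0.36 and -0.29).

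Of 16 transcription factors tested 11 were higher in the 301 cells and 15 in the stricter set, with 0 lower. SOX18, a factor of blood and lymph vessels, lay at 337, 448 and 222 CPM in the stricter set against 3.26, 2.22 and 0.448 CPM. SOX17, an arterial factor, lay at 103, 136 and 92.1 CPM against 0.319, 0.621 and 0.398 CPM, and EPAS1, the hypoxia-inducible factor abundant in lung endothelium, at 127, 101 and 60.4 CPM against 2.43, 1.51 and 2.19 CPM. The ETS factors ETS1 and FLI1 are also used by leukocytes: ETS1 rose by 0.87 and 2.37, and FLI1 by 1.56 in the stricter set only (adjusted p = 0.365 for the 301 cells). MEF2C was the factor called in neither set (-0.43 and 0.29).

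Notch genes gave 4 higher of 9 in the 301 cells and 6 of 9 in the stricter set, and arterial genes 8 of 11 and 9 of 10, with 1 arterial gene lower in the stricter set. DLL4, the Notch ligand of arterial and tip cells, lay at 36.7, 75.4 and 25.9 CPM in the stricter set and 0.0869, 0.372 and 0.211 CPM elsewhere. NOTCH1 rose by 2.83 in the stricter set (adjusted p = 7.26e-05), while the value for the 301 cells was 1.26 (adjusted p = 0.0568). The Notch targets HES1 and HEY1 rose by 1.42 and 2.31, and RBPJ, the nuclear effector found in most cells, was not called (-0.49, adjusted p = 0.0937). Without animal 1 the HES1 call was lost (0.71, adjusted p = 0.128), and without animal 3 the HEY1 call (1.68, adjusted p = 0.105). GJA4, the arterial connexin, lay at 36.7, 109 and 17.3 CPM, highest in animal 2, against 0.333, 0.645 and 0.323 CPM. Venous and leukocyte-adhesion genes gave 5 higher and 1 lower of 7, and 4 and 1 in the stricter set. ACKR1, the chemokine-binding receptor of venules, lay at 194, 81.8 and 71.9 CPM against 1.81, 1.85 and 1.14 CPM, and EPHB4, the venous ephrin receptor, rose by 5.13.

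Lymphatic genes had a median log2 fold change of 5.63 in the 301 cells and 7.08 in the stricter set, with 7 and 9 of 10 higher and, in the stricter set, 1 lower. MMRN1, a secreted glycoprotein of lymphatic endothelium, lay at 137, 132 and 68.5 CPM in the 301 cells and 604, 349.8 and 216 CPM in the stricter set, against 0.376, 0.149 and 0.386 CPM in other cells (8.22 ± 0.36, adjusted p = 3.57e-09). LYVE1, the hyaluronan receptor of lymphatic vessels, lay at 1031, 640.2 and 285 CPM against 1.87, 3.91 and 1.47 CPM. Both genes were highest in animal 1 and lowest in animal 3 within the stricter set, and neither overlapped the other cells. RELN rose by 6.98, TBX1 by 5.32 and the scavenger receptor STAB2 by 5.94, while MAF passed only in the stricter set (1.37; adjusted p = 0.317 for the 301 cells).

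Capillary lists were mixed. Of 8 general capillary genes 4 were higher and 1 lower, and 4 and 2 in the stricter set. FCN3, the lectin ficolin that lung endothelium makes, lay at 685, 1223 and 355 CPM in the 301 cells, 3217, 3164 and 1206 CPM in the stricter set and 1.35, 4.05 and 1.47 CPM in other cells (8.10 ± 0.23). GPIHBP1, which holds lipoprotein lipase on capillaries, lay at 16.7, 191 and 92.1 CPM, with animal 1 far below the other two, against 0.0145, 0.273 and 0.0373 CPM. The fatty acid carrier CD36, also abundant in macrophages, was not called against all other cells (-0.36 and -0.42). Of 6 aerocyte genes 4 were higher in each set and 1 was lower in the 301 cells. EDNRB, the endothelin receptor of aerocytes, lay at 157, 239 and 169.8 CPM against 9.01, 3.94 and 5.51 CPM. HPGD, which breaks down prostaglandins, rose by 1.74 on the log2 scale in the stricter set.

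**Figure D3:**
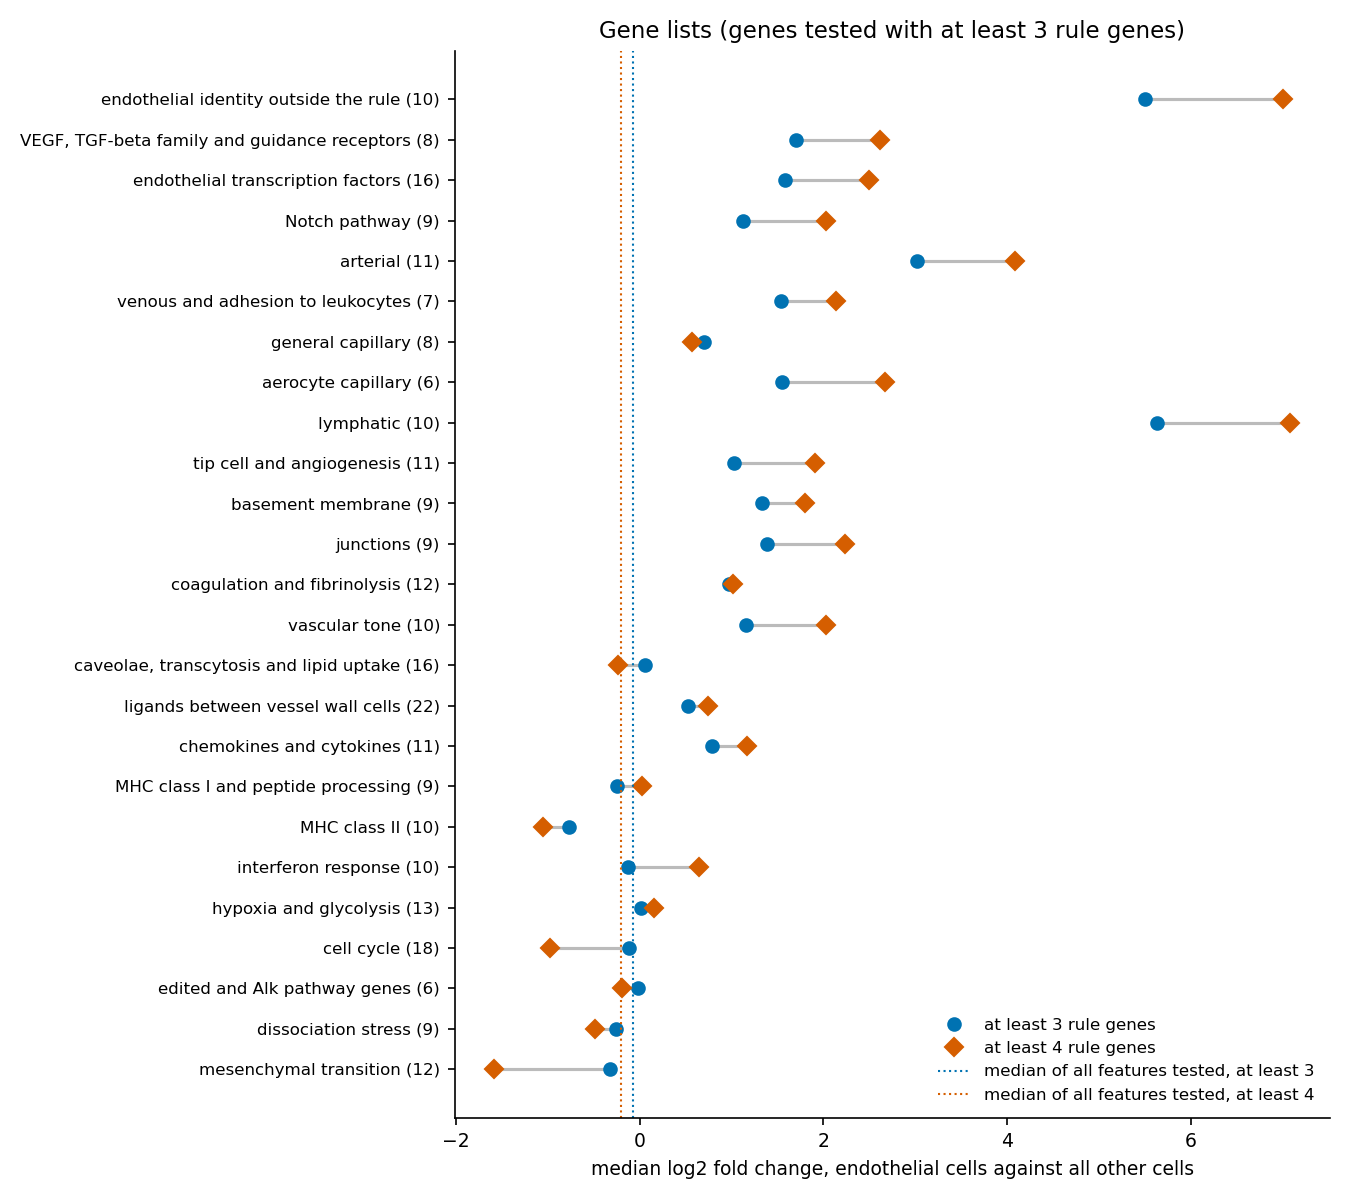
Median log2 fold change of each gene list (rows, number of genes tested in brackets) in endothelial cells against all other cells, for the 301 cells (circles) and the stricter set (diamonds), with dotted lines at the medians of all features tested. Identity and lymphatic lists lie farthest to the right, between 5.50 and 7.08, and MHC class II and mesenchymal lists lie left of the lines in both sets.

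All 9 basement membrane genes tested were higher in both sets, with a median log2 fold change of 1.33 and 1.80. COL15A1, a collagen of vessel basement membranes, lay at 86.8, 73.8 and 97.8 CPM in the stricter set and 4.68, 5.28 and 3.43 CPM elsewhere. SPARCL1, a matrix-associated protein, rose by 3.48, HSPG2, the proteoglycan perlecan, by 1.80, and the laminin chain LAMB1 by 1.31. Junction genes gave 7 higher of 9 in both sets. OCLN, a tight junction protein shared with epithelium, lay at 56.7, 104 and 34.5 CPM against 0.999, 1.09 and 2.02 CPM, and the adhesion molecule JAM2 rose by 5.54.

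Coagulation genes gave 7 higher and 1 lower of 12, and 7 and 3 in the stricter set. PROS1, the cofactor protein S, rose by 3.07, TFPI, the inhibitor of tissue factor, by 1.45 and PLAT, tissue plasminogen activator, by 1.11. F3, tissue factor itself, fell by 1.21 in the 301 cells and by 2.07 in the stricter set. PLAU, urokinase, was higher in the 301 cells (0.88) and lower in the stricter set (-1.36), with both values called. In the stricter set the calls of F3 (-1.37, adjusted p = 0.237) and PLAT (0.72, adjusted p = 0.214) were lost without animal 2 and that of PLAU (-0.51, adjusted p = 0.473) without animal 1. Of 10 genes of vascular tone 5 were higher, and 6 in the stricter set with 1 lower: EDN1, the vasoconstrictor endothelin, lay at 127, 157 and 20.1 CPM in the stricter set, lowest in animal 3, against 5.52, 4.97 and 3.07 CPM, and its converting enzyme ECE1 rose by 2.75. Caveolar and transport genes gave 5 higher of 16 and, in the stricter set, 6 higher and 5 lower, among them CAV2 (3.16), CAVIN1 (2.04) and the water channel AQP1, for which only 16 UMIs were counted.

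Tip cell and angiogenesis genes gave 7 higher of 11, and 6 higher and 1 lower in the stricter set. ANGPT2, the angiopoietin that loosens vessels, lay at 13.3, 44.9 and 37.4 CPM in the stricter set, lowest in animal 1, against 0.376, 0.211 and 0.162 CPM. Ligands between vessel wall cells gave 9 higher of 22 in both sets, with 2 lower in the stricter set. BMP4 rose by 3.37, and VEGFA, the main vessel growth factor, was not called in either set (0.01 and -0.72). Of 4 list genes called in both sets with opposite signs (COL1A1, COL3A1, IGF2 and PLAU), each was higher in the 301 cells and lower in the stricter set, whereas 113 list genes were called in both with the same sign.

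Genes of class II antigen presentation were lower than in the pooled other cells of the tumours. Of 10 MHC class II genes 8 were lower in the 301 cells and 7 in the stricter set, with 0 higher. CD74, the class II chaperone, lay at 3311, 7262 and 1741 CPM in the stricter set and 5475, 8404 and 3794 CPM in other cells (-1.13 ± 0.15). HLA-DPA1 fell by 1.37. Of 9 class I genes 1 was higher in each set, the proteasome subunit PSMB10 (0.67 and 1.32), and 1 other was lower in the stricter set. The PSMB10 call over the 301 cells was lost without animal 1 (0.54, adjusted p = 0.109) or animal 2 (0.66, adjusted p = 0.0785). For this and the later lists against all other cells, all features gave 6% higher and 6.18% lower in the 301 cells. In the stricter set they gave 8.58% and 12.4%, so the class I counts were near the shares over all features. Interferon-response genes gave 0 higher and 2 lower of 10 in the 301 cells, and 5 higher and 2 lower in the stricter set. ISG15 lay at 1795, 519.9 and 379.8 CPM in the stricter set against 841, 312 and 120.0 CPM, higher in 3 of 3 animals and highest in animal 1 in both classes (0.71, adjusted p = 0.00082); over the 301 cells the value was -0.10 (adjusted p = 0.738). IFIT3 rose by 1.13 in the stricter set and was not called in the 301 cells (-0.10). Chemokine and cytokine genes gave 4 higher and 1 lower of 11, and 5 and 2: IL33, a nuclear alarmin of endothelium, rose by 1.17, TNFSF10, the ligand TRAIL, by 1.38 in the stricter set, and IL1B fell by 2.26.

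Hypoxia and glycolysis genes gave 3 higher and 0 lower of 13, and 2 and 5 in the stricter set, in which the glycolytic enzymes PGK1 (-1.23) and Eno1 (-0.91) were lower. Cell cycle genes gave 1 higher and 2 lower of 18 in the 301 cells, near the 6% and 6.18% over all features, and 1 and 7 in the stricter set, where all features gave 8.58% and 12.4%. CCND1, a G1 cyclin, rose by 0.99 and 1.05, and CDKN1A, the cell cycle inhibitor p21, fell by 1.01 and 1.12. TOP2A, a marker of dividing cells, was at 3.34, 46.5 and 613 CPM in the stricter set; in animal 3, which stands apart, 109 of 213 UMIs came from 1 cell that had 4 rule genes and was grouped with collagen-rich cells, and without it the level was 348 CPM. It was called in neither set (-0.15 and -1.33, adjusted p = 0.0587 for the latter). ALK transcripts were few, 55 UMIs in the 301 cells and 8 in the stricter set, and neither ALK (0.90 and -0.27) nor RB1 (-0.30 and 0.13) was called; 3-prime counts show neither the inversion nor the edit. PTN, a secreted ligand reported to act on ALK, lay at 200.2, 88.3 and 94.9 CPM against 13.6, 12.5 and 20.6 CPM (2.55).

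Of 9 stress genes 0 were higher and 3 lower in each set, with Fos at -0.74 in the stricter set, a call lost without animal 2 (-0.50, adjusted p = 0.206). Mesenchymal genes gave 3 higher and 2 lower of 12, and 1 and 7 in the stricter set. COL1A1 lay at 1659, 580.0 and 1118 CPM in the 301 cells, 40.0, 162 and 101 CPM in the stricter set and 905, 449 and 505 CPM in other cells, a log2 fold change of 0.52 for the first and -2.98 for the second; the first call was lost without animal 3 (0.42, adjusted p = 0.157). The gene higher in the stricter set was ZEB1 (1.76), a repressor of epithelial genes, and ZEB2, also a leukocyte gene, fell by 1.49. Beside these values, the 8 fibroblast markers summed to 4077, 1474 and 2300 CPM in the 301 cells and 224, 589 and 440.2 CPM in the stricter set, and the 7 macrophage markers to 539.9, 1724 and 1530 and 297, 522 and 840.1 CPM, with 0 or 1 macrophage markers and up to 2 fibroblast markers at 0. The 10 mural markers summed to 60.1, 340 and 40.3 CPM in the stricter set and 94.9, 79.3 and 49.0 CPM in other cells, higher only in animal 2. The part of these markers and their cells in the results was not tested.

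The second comparison set endothelial cells against 1967 cells (723, 562 and 682 in animals 1, 2 and 3) defined by at least 4 fibroblast or mural markers. They are called fibroblasts and mural cells, or stroma, by these markers alone. Tumour, bone-matrix or mesothelial cells that carry the same markers were not told apart from them. Of 11976 features 858 were higher in the 301 cells (7.16%) and 521 lower (4.35%), and of 11979 with the stricter set 948 were higher (7.91%) and 1206 lower (10.1%). Without animal 2 the calls in either direction were 770 in place of 1379 for the 301 cells and 644 in place of 2154 for the stricter set, and without the animal block 793 for the 301 cells. The leading genes with 4 or more UMIs in the stroma were largely those already named: FCN3 (9.36), TIE1 (8.22), LYVE1 (8.10), STAB1 (7.29), CALCRL (7.0), PTPRB (6.82) and ESAM (6.77). MMRN1 had 1 UMI in all stromal cells of the 3 animals, so no fold is given for it. PGLYRP1, a peptidoglycan-binding protein, lay at 371, 50.4 and 35.1 CPM in the 301 cells and 0.512, 0.85 and 0.59 CPM in stroma. However, 506 of its 654 UMIs came from 1 cell of animal 1, and 46 and 28 more from 1 cell each of animals 2 and 3. Lowest against the stroma were SFRP1, a Wnt inhibitor, CCL19, CCL11, POSTN, FIBIN, SPP1, PRG4 and C7, with log2 fold changes from -4.39 to -3.03. SPP1 was at 2.82, 15839 and 3.19 CPM in the 301 cells and 102, 34117 and 382 CPM in stroma. Nearly all of it came from animal 2 in both classes. PRG4, also a mesothelial marker, was at 245, 268 and 748 CPM in stroma. The calls of SPP1 (-2.92, adjusted p = 0.196) and PRG4 (-3.38, adjusted p = 0.0585) were lost without animal 1.

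FBP1 and CYP7A1, enzymes of gluconeogenesis and bile acid synthesis, ranked among the increases over the 301 cells and depended on the 3-gene cells. FBP1 lay at 139, 426 and 209.5 CPM in the 301 cells and 13.3, 32.1 and 74.8 CPM in the stricter set, and CYP7A1 at 26, 89.9 and 47.8 and 0, 6.42 and 2.88 CPM. The CYP7A1 call was lost in the stricter set (0.43, adjusted p = 0.787) and the log2 fold change of FBP1 fell from 4.64 to 1.67, a call lost without animal 2 (2.19, adjusted p = 0.0718) or animal 3 (1.01, adjusted p = 0.14).

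Against stroma, all 16 transcription factors tested were higher in the stricter set (11 of 16 in the 301 cells), with FLI1 at 4.26, ETS1 at 3.20 and MEF2C at 1.75. Of 10 class II genes 7 were higher in the 301 cells and 4 in the stricter set, with 0 lower. For this and the later lists against stroma, all features gave 7.16% higher and 4.35% lower in the 301 cells. In the stricter set they gave 7.91% and 10.1%. Stromal cells had at most 1 PTPRC UMI and the chosen cells had no such limit, so genes shared with leukocytes were favoured here. The macrophage marker MRC1 was at 110, 106 and 199 CPM in the stricter set and 14.8, 20.8 and 27.3 CPM in stroma. How far leukocyte RNA entered the FLI1 and class II values was not tested. CD74 lay at 3311, 7262 and 1741 CPM in the stricter set and 1896, 3486 and 586 CPM in stroma (0.88 ± 0.16, adjusted p = 0.002), and HLA-DRA rose by 1.54. IFI30, a lysosomal reductase abundant in macrophages, rose by 1.38 over the 301 cells and was at -0.19 in the stricter set (adjusted p = 0.586). Interferon genes gave 0 calls of 10 in the 301 cells by edgeR and 0 by DESeq2, with 5 higher at an unadjusted p under 0.05, and 6 higher in the stricter set, led by IFIT3 (1.65), IRF7 (1.10) and ISG15 (1.02). Without animal 2 the stricter-set calls of CD74 (0.96, adjusted p = 0.073), HLA-DRA (1.73, adjusted p = 0.167), ISG15 (0.93, adjusted p = 0.0643) and IRF7 (0.85, adjusted p = 0.203) against stroma were lost.

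Basement membrane genes, raised against all cells, gave 1 higher and 2 lower of 9 against stroma, and 2 and 0 in the stricter set. All features gave 7.16% higher in the 301 cells and 10.1% lower in the stricter set. The 1 higher and the 0 lower were near those shares. SPARC lay at 708, 1090 and 604 CPM in the stricter set and 938, 783 and 575 CPM in stroma, overlapping ranges (adjusted p = 0.5). COL15A1 was higher (2.82), LAMC1 was lower over the 301 cells (-1.03), and SPARCL1 went from -0.34 over the 301 cells to 1.10 in the stricter set. CD36, uncalled against all cells, lay at 33.4, 36.9 and 46 CPM against 1.54, 4.37 and 1.65 CPM in stroma. In the stricter set the growth factor VEGFA fell by 1.83 against stroma, the chemokine CCL2 by 2.58 and the receptor FGFR1 by 2.07. Without animal 2 the calls of VEGFA (-2.10, adjusted p = 0.103), FGFR1 (-2.21, adjusted p = 0.0528) and SPARCL1 (0.83, adjusted p = 0.254) were lost.

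The 301 cells were then grouped by their other genes, leaving out the rule genes, which gave 7 groups; other resolutions from 0.4 to 1.2 gave 6 to 9 groups (adjusted Rand index against the 7 from 0.831 to 0.918), so the number of groups and their shares rest on this setting. These groups describe the cells and their genes were not tested. In 4 groups, of 55, 50, 41 and 37 cells, cells with at least 4 rule genes outnumbered those with 3. These are called the endothelial groups. They held 183 cells and 161 of the 175 cells of the stricter set, a count that the choice of groups favoured. The other 3 groups, of 52, 51 and 15 cells, were led by SCGB3A2, SPP1, MMP3 and COL1A1, by FBP1, GPNMB and RETN, and by PRG4, MFAP4 and A2m. They held 118 cells, 104 of them with exactly 3 rule genes, which the choice of groups favoured as well. Their median depths were 32289, 21630 and 15097 UMIs, against 3781, 2954, 3477 and 5488 in the endothelial groups.

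**Figure D4:**
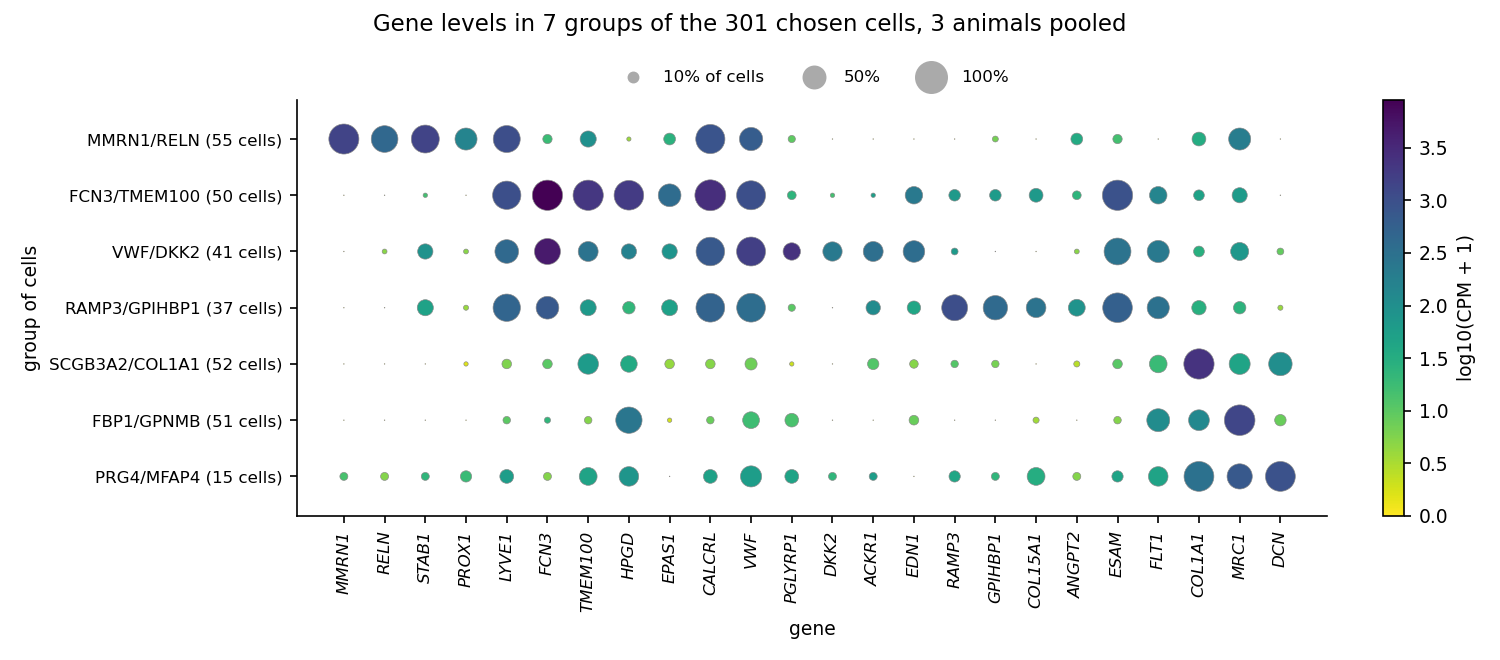
Level (colour, log10 of CPM + 1) and percentage of cells with a UMI (dot area) of 24 genes in the 7 groups of the 301 cells, animals pooled. MMRN1 and RELN mark the first group, FCN3 and TMEM100 the second, DKK2 and ACKR1 the next, and RAMP3 and GPIHBP1 the fourth. COL1A1, MRC1 and DCN mark the 3 lower rows. VWF, named beside DKK2, is a rule gene and is shown as a description only.

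The group of 55 cells was lymphatic endothelial-like, from the markers MMRN1, RELN and STAB2. MMRN1 was at 1459, 1456 and 1309 CPM in animals 1, 2 and 3 and had 0 UMIs in the other 3 endothelial groups, where 0 UMIs allow up to 14.2, 12.1 and 9.28 CPM. RELN was at 361, 521 and 379 CPM and STAB2 at 196, 127 and 47.3 CPM. The lymphatic factor PROX1 helped to choose the cells and is no support for the name; as a description, it was at 158, 160.3 and 110.4 CPM here and was seen in 28 of 55 cells, against 0, 1 and 1 cells of the other endothelial groups. Of the 55 cells 54 had at least 1 of MMRN1, RELN and STAB2. The group also had STAB1, a scavenger receptor, at 1211, 1944 and 694 CPM, the transcription factors TBX1 at 316, 341 and 458 CPM and MAF at 609, 2004 and 599 CPM, and ACKR2, which scavenges inflammatory chemokines on lymphatic vessels, at 429, 247 and 363 CPM.

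Other leading genes of the lymphatic-like group have no place in the lists: SOD3, the extracellular superoxide dismutase, at 564, 1223 and 631 CPM, CIDEA, a lipid droplet protein, at 842, 802 and 1183 CPM, GABRD, a GABA receptor subunit, at 1113, 875 and 947 CPM and FGF23, the phosphate hormone of bone, at 789.6, 387 and 94.7 CPM. CIDEA and GABRD were also at 309 and 526 CPM in the group with RAMP3, so they did not mark lymphatic-like cells alone. FLT1 had 0 UMIs in the lymphatic-like group, which allows up to 8.67 CPM, against 142, 229.5 and 303 CPM in the other 3. ESAM was at 14.4 CPM against 921, 286 and 579 CPM, and SOX17 at 5.78 against 317, 44.3 and 207 CPM.

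LYVE1 did not separate the groups. It was at 1632, 648 and 726 CPM in animals 1, 2 and 3 in the lymphatic-like group and at 1017, 977 and 1864 CPM in the group with FCN3, and at 419 and 483 CPM in the other 2, where MMRN1 and RELN were at or near 0.

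The group of 50 cells was led by TMEM100, a target of BMP signalling in lung endothelium, at 2318, 2053 and 2382 CPM, FCN3 at 11897, 8106 and 12945 CPM and HPGD at 2602, 1459 and 5075 CPM in animals 1, 2 and 3. CALCRL was at 2909, 2679 and 2486 CPM, and EPAS1 at 373 CPM against 26, 80.5 and 49.5 CPM in the other endothelial groups. CRYM, a thyroid hormone binding protein, was at 1301, 1471 and 1450 CPM. TNFSF10 was at 1299 CPM and CD74 at 9533 CPM, the highest of the 4 groups for both, with CD74 at 6480, 10811 and 1761 CPM in animals 1, 2 and 3. Animal 3 gave only 3 cells to this group. Members of the capillary lists were spread over the groups: the aerocyte genes HPGD and EDNRB (425 CPM) were highest here with FCN3 of the general capillary list, but FCN3 was also at 4929 CPM in the group with VWF and DKK2, EDN1 was highest in that group and GPIHBP1 in the group with RAMP3.

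The group of 41 cells had the highest VWF, at 1312, 2799 and 835 CPM. VWF helped to choose the cells, so its level is a description and no support for a name. PGLYRP1, IGKC, DKK2 and EDN1 were among the 10 leading genes of the group, from which rule genes were left out. DKK2, a Wnt regulator of arteries, was at 254, 282 and 158 CPM and FBLN5, an elastic fibre protein, at 107, 470.4 and 113 CPM. ACKR1 was at 549, 294 and 192 CPM and SELP, the adhesion molecule P-selectin, at 13.4, 212 and 11.3 CPM. In animals 1 and 3 SELP had fewer than 3 UMIs in this group, so its level rests on animal 2. DKK2 and FBLN5 of the arterial list and ACKR1 of the venous list were thus high in the same group, which was not divided further. Other arterial genes were not: SOX17 was lower here than in the FCN3 and RAMP3 groups, and DLL4 was lowest here among the endothelial groups. EDN1 was at 174, 823 and 90.3 CPM, highest in animal 2, and PTN at 482, 988 and 384 CPM. Of 36 PTN UMIs of animal 1 in this group, 23 came from 1 cell, and the level without that cell was 199 CPM. Of 522 PGLYRP1 UMIs of animal 1 in this group, 506 came from 1 cell. In animal 2 it was 46 of 66 and in animal 3 28 of 29, each from 1 cell with 3 rule genes. Of 19659 IGKC UMIs of animal 3 in this group, 11872 came from 1 cell, and IGKC was at 221897 CPM there with that cell and 117803 CPM without it.

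The group of 37 cells was led by RAMP3 at 375, 895 and 1603 CPM and GPIHBP1 at 41.6, 561 and 317 CPM, both lowest in animal 1. It held the highest levels of several tip cell and basement membrane genes: ADM at 687, 689.9 and 998 CPM, ANGPT2 at 0, 93.5 and 106 CPM, COL15A1 at 437, 216 and 326 CPM and HSPG2 at 437, 368 and 336 CPM. DLL4 was at 129.9 CPM, against 23.1, 66.1 and 16.1 CPM in the others, and MCAM, an adhesion molecule shared with mural cells, at 136 CPM, against 4.72 and 16.1 CPM and 0 UMIs in the lymphatic-like group (up to 8.67 CPM). ACTA2, a mural marker, had 45 UMIs in this group in animal 2, and 44 of them came from 1 cell. SPARC was at 1875 CPM here and 1653 CPM in the FCN3 group, against 86.7 and 169 CPM in the other 2.

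**Figure D5:**
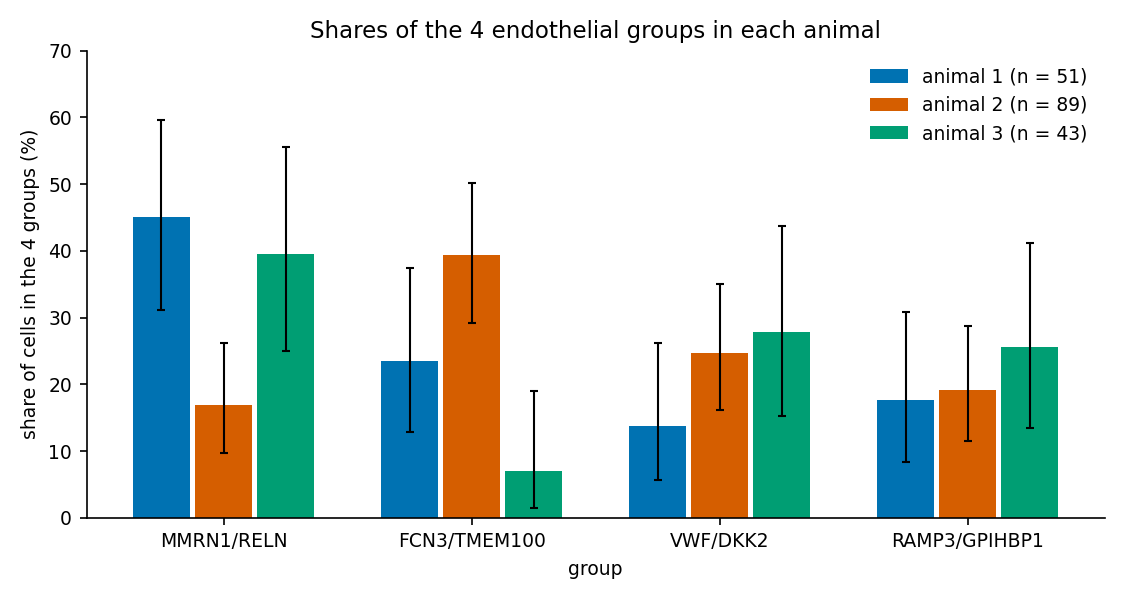
Share of each endothelial group among the 51, 89 and 43 cells of the 4 groups in animals 1, 2 and 3 (bars), with exact binomial 95% intervals for counting error (whiskers). The lymphatic-like MMRN1/RELN share is lowest in animal 2 and the FCN3/TMEM100 share lowest in animal 3.

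The makeup differed between the 3 animals. The lymphatic-like group was 45.1%, 16.9% and 39.5% of the cells in the 4 endothelial groups of animals 1, 2 and 3 (exact Clopper-Pearson 95% intervals of 31.1 to 59.7, 9.75 to 26.3 and 25 to 55.6%). The FCN3 group was 23.5%, 39.3% and 6.98%, the VWF and DKK2 group 13.7%, 24.7% and 27.9%, and the RAMP3 group 17.6%, 19.1% and 25.6%. The intervals of animals 1 and 2 for the lymphatic-like share did not overlap, nor did those of animals 2 and 3 for the FCN3 share, whereas all intervals for the RAMP3 group overlapped. Intervals cover counting error only, and how much tumour or adjoining lung each library held is not in the labels.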

How the data were processed

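Single-cell RNA from lung tumours of 3 animals was profiled in 1 droplet library each. The deposited values are whole-number counts of UMIs per gene and cell, written by Cell Ranger 7.1.0 per the file headers, whereas the submitters' processing notes name version 8.0.0; the genome build is not given in the sources used here. The tables hold 23189 features, of which 11611 have no symbol and were matched to no list; 0 of the feature identifiers matched the reference table.

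Barcodes were kept from 1000 UMIs and 500 genes upwards if 13 mitochondrial genes made up less than 20% of their UMIs, which left 8078, 9015 and 7951 of 9500, 10000 and 10000 barcodes. Scrublet's automatic threshold marked 1, 0 and 0 cells and had not worked, so no doublets were removed; a score of at least 0.2 was used as an alternative. For each animal, the counts of a class of cells were added up, and classes were compared by the quasi-likelihood test of edgeR 4.0.16 in R 4.3.3, with the animal as a block, TMM factors, the filterByExpr filter and a Benjamini-Hochberg adjusted p under 0.05; the code was tested on simulated data. Both classes came from the same animals, and their deviations from the class means correlated within each animal (r from 0.247 to 0.46), so the animals were treated as pairs. Stromal cells had at least 4 stromal markers, at least 10 UMIs of them, at most 1 rule gene and at most 1 PTPRC UMI; stromal markers were left out of the counts in that comparison, as were rule genes in both. Groups within the chosen cells were made with scanpy 1.11.5 and leidenalg 0.10.2 (1500 variable features, 15 components, 10 neighbours, resolution 0.8) and compared without a test. Of 408 genes on 25 lists 273 were measured.

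Named genes were the rule genes, members of those lists and, in each comparison, the 15 highest and 8 lowest features with a symbol that were called, changed alike in 3 animals and averaged at least 50 CPM over the animals in the higher class; genes that lead a group were named after their values were seen. The members and lists were chosen with earlier results of these data known. A floor for 0 UMIs is 3 counts, and floors and intervals cover counting error only. Alternatives were DESeq2 1.42.0, other scaling, filters, cell limits and cell sets, and each animal left out.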

Additional observations from a re-analysis of the deposited data

How the results depend on the processing

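The share of quality-passing cells was 1.19% by the rule, 0.688% with at least 4 rule genes, 5.92% with at least 2 and 0.531% with every cell thinned to 1000 UMIs. Against all other cells 1817 features were called, 3072 with at least 4 rule genes, 3184 without cells carrying markers of other lineages, 3444 with the rule at 1000 UMIs and 881 with other cells matched on UMIs; against stroma 1379 were called, and 2154, 2342 and 2850 under the first 3 of these. The rule at 1000 UMIs, and leaving out animals or the block in the stricter set, were chosen after seeing the data.

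Without the replicate block, that is without pairing by animal, 721 features were called against all other cells and 793 against stroma. Leaving out each animal gave 1420 to 1547 calls against all cells, the lowest without animal 3, and 770 to 1107 against stroma, the lowest without animal 2. In the stricter set it gave 1688 to 3378 and 644 to 2736, both lowest without animal 2, and leaving out the block gave 2085 and 1623. DESeq2 gave 1568 and 1190 calls, library size alone 1984 and 1438, no filter 2070 and 1873.

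Signs turned in genes of other lineages or of shared use, and the cause was not tested. With at least 4 rule genes, the rule at 1000 UMIs and other-lineage cells left out, in that order, the log2 fold changes against all other cells were -1.36, -0.82 and -1.54 for PLAU, 0.71, 0.90 and 1.12 for ISG15, 1.13, 1.31 and 1.43 for IFIT3, -2.98, -4.46 and -3.33 for COL1A1 and -2.86, -3.53 and -4.57 for FBP1. Against stroma they were 1.10, 1.42 and 1.07 for SPARCL1, 0.62, 0.74 and 0.80 for CAVIN1, -0.19, -0.70 and -0.92 for IFI30 and -1.17, -1.46 and -1.16 for PGK1. TOP2A was at -2.85 and -2.20 under the last 2 of these, FBP1 at -0.077 without other-lineage cells, and ALK at -10.80 against all other cells, where 0 of its UMIs were left and the value is no bound. Depth limits the rare genes: the stricter set rests on 41 to 85 cells per animal.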
